A study of Mus musculus with 32 samples.

Results

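The genes described here make and run the lysosome. They are 37 mouse genes out of 54281 gene identifiers in the count table, chosen by name for their role. They comprise 16 genes of the proton pump of the lysosome (6 subunits of its V0 sector, 8 of its V1 sector and 2 accessory proteins), 8 membrane and cholesterol-handling proteins, 10 hydrolases and activators other than cathepsins, and the 3 MiT transcription factors Tfeb, Tfe3 and Mitf. All 37 were found in the table and passed the filter on low counts, which 15257 genes passed in all.

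The lysosome digests material taken up from outside the cell and worn-out parts of the cell itself. The vacuolar ATPase (V-ATPase) spends ATP in its cytosolic V1 sector to drive protons through its V0 sector in the membrane, and the acid lumen that results is what the hydrolases need. The MiT factors bind a short DNA element, the CLEAR element, in the promoters of many lysosomal genes, and macrophages, which live by uptake and digestion, are known for a large lysosomal compartment.

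The libraries were made from RNA of bone marrow-derived macrophages (BMDMs), cells grown out of mouse bone marrow in medium conditioned by L929 cells. All cultures carried R26-CreERT2, a Cre recombinase under the Rosa26 promoter, which is active in most cell types, that works only once 4-hydroxytamoxifen (4-OHT) is bound, and at least 1 loxP-flanked (FL) allele of Trex1, the gene of a DNA-degrading exonuclease. Cells were Trex1 FL/FL or Trex1 WT/FL and were either left untreated or exposed to 2 µg/ml 4-OHT for 22 h, and they were harvested 1, 2, 3 and 4 days after 4-OHT. This gave 16 groups with 2 libraries apiece, 32 in all. The 4-OHT-treated Trex1 WT/FL control also met active Cre and can lose its floxed allele, so it is not a wild type culture. The labels give no animal, batch or replicate number, so p-values measure the spread between libraries that may be technical replicates.

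The libraries held 35120505 to 63760884 counts (median 44841991). Trex1 had 0 to 14 counts in the 8 4-OHT-treated Trex1 FL/FL libraries and 758 to 6553 in the other 24. All 1116 of the 31-base words in Trex1 transcripts also occur in those of Atrip, so these estimates depend on how shared reads were divided. All 14 macrophage markers averaged over 100 CPM (counts of a gene scaled to a common library total) across the libraries, while 7 of 10 lymphocyte markers stayed at 3 counts or fewer in every library (the list summed to at most 53.0 CPM). The summed macrophage markers went from 16280–18750 CPM on day 1 to 43350–53320 on day 3 and 34050–38320 on day 4, and the summed markers of cycling cells went from 2292–2557 to 104–137 CPM between days 1 and 3. Their part in the results below was not tested. In bulk RNA, a change in the number of cells of a type and a change of RNA per cell cannot be told apart.

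A CACGTG hexamer, the core that MiT factors read, lies in the RefSeq promoters (250 bases before to 50 after the gene start, build GRCm38.p6) of 9 of the 30 members found in that table, 30% against 8.09% of 27025 genes. The extended TCACGTGA, which contains CACGTG, is in 4 of the 30, 13.3% against 1.12%. Both motifs read the same on either strand. The 9 members with CACGTG are Atp6v0b, Atp6v0d1, Atp6v0e, Atp6v1a, Mcoln1, Lamp1, Glb1, Gaa and Lgmn. This motif is thus present in promoters of the pump and in those of the membrane proteins and hydrolases. For Lgmn, 1 listed promoter held 1 copy and another held 0. TCACGTGA is in Atp6v0d1, Atp6v0e, Atp6v1a and Mcoln1, and in 0 of the 9 hydrolases examined. The promoters of Tfeb, Tfe3 and Mitf themselves held none. Atp6v0d2, Atp6v1b2, Atp6v1c1, Atp6v1g1, Atp6v1h, Npc1 and Asah1 were not found in that table, so their promoters were not examined. The shares over all genes were not limited to genes that passed the filter on low counts, which every member did. The stretches below run from 150 bases before to 10 after the gene start in gene direction. They are examples from 2 roles. Lamp1 and Mcoln1 belong to the membrane proteins, most of which rose with time in culture. Atp6v0d1 and Atp6v1a belong to the pump, most of whose subunits changed little or dipped on day 3. CACGTG is in capitals.
Lamp1, chr8:13159011-13159170 (plus strand): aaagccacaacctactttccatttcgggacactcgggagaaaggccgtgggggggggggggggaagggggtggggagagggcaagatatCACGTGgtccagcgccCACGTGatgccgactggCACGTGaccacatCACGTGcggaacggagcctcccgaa
Mcoln1, chr8:3500369-3500528 (plus strand): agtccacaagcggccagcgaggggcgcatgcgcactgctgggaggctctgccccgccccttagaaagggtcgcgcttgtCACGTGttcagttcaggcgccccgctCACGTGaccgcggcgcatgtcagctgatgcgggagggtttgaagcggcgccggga
Atp6v0d1, chr8:105566055-105566214 (minus strand): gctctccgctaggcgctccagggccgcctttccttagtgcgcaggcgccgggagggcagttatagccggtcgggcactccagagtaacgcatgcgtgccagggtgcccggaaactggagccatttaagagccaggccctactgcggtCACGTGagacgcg
Atp6v1a, chr16:44139250-44139409 (minus strand): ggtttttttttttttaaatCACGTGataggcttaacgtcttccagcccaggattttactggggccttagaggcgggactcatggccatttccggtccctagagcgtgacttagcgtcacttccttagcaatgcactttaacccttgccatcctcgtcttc
Lamp1 held 4 copies, starting 61, 45, 28 and 15 bases before the gene start, and Mcoln1 held 2, starting 71 and 45 bases before it. The single copy of Atp6v0d1 starts 3 bases before the gene start and that of Atp6v1a 131 bases before it. Copy number did not follow the course over days in all members. Atp6v0b of the pump held 2 copies, and its mean on day 3 was 1.35 times that on day 1. Glb1, Gaa and Lgmn held 1 each, with ratios of 2.12, 2.47 and 4.47. Psap, Hexa, Man2b1, Npc2 and Lamp2 rose and held none. A match is a sequence feature and was not tested as a binding site.

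Lysosomal transcripts were abundant. The 37 members together took 1.58 to 1.65% of all counts on day 1, 2.29 to 2.41% on day 2, 3.06 to 3.45% on day 3 and 2.97 to 3.28% on day 4. No library of day 1 or 2 reached the range of day 3. Much of this rise came from Psap alone, whose mean over the libraries of a day went from 2877 CPM on day 1 to 12850 on day 3. Per kilobase of exon, Psap, the precursor of the saposins that help degrade sphingolipids, was highest at 2600 ± 1380 CPM per kb (SD over 32 libraries), above 99.95% of the tested genes. Grn (progranulin, 834 CPM per kb), Cd68 (a LAMP family protein of macrophages, 640 CPM per kb) and Lamp1 (an abundant glycoprotein of the lysosomal membrane, 411 CPM per kb) followed. Tfeb was lowest at 6.21 CPM per kb, next to Mcoln1, a calcium channel, at 6.68 CPM per kb, and their levels lay within each other's SD (1.12 and 1.68 CPM per kb). The order depends on the length used: with the median transcript length, Atp6v0c moved from place 7 to place 4 and Atp6v0d2 to the last place. The range between groups was widest for Atp6v0d2, whose highest group mean was 7.32 times its lowest, and for Lgmn (5.99 times) and Psap (4.94 times), and narrowest for Atp6ap2 (1.25 times).

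The main movement was with the day. All hydrolases but Gusb and all membrane proteins but Npc1 were higher on day 3 than on day 1 by 1.70 times or more over the means of 8 libraries, while most pump subunits changed little or dipped on day 3. All 8 libraries of day 3 lay above all 8 of day 1 for 25 of the 37 members, and below for 6, where 28.5% and 27% of tested genes did so. By role, the day 3 libraries lay above for 9 of 10 hydrolases, 8 of 8 membrane proteins and 3 of 3 MiT factors, but for 3 of 6 V0 and 1 of 8 V1 subunits. The ratio of the mean on day 3 to that on day 1 had a median of 2.51 over the hydrolases and 2.18 over the membrane proteins, against 1.13 over V0 and 0.96 over V1.

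**Figure D1:**
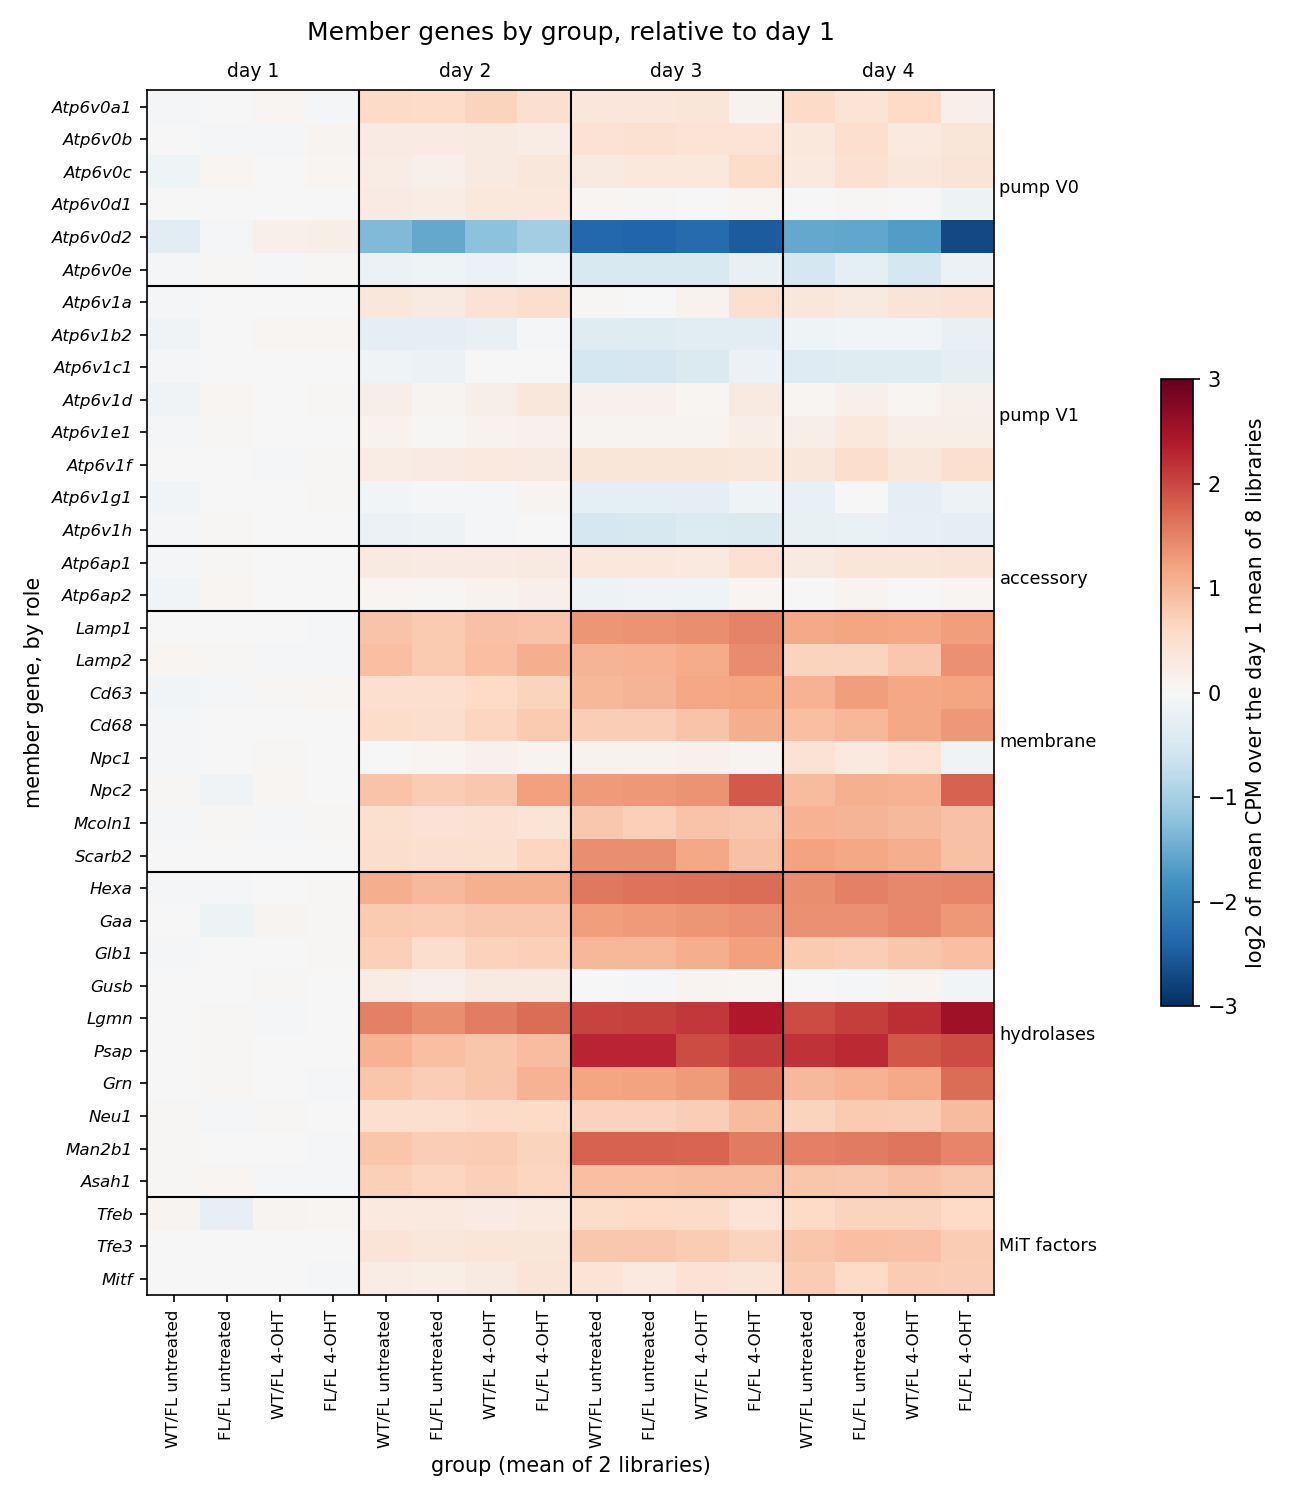
Heat map of the 37 members (vertical axis, grouped by role) in the 16 groups (horizontal axis, by day); colour is the log2 of the mean CPM of 2 libraries over the mean of the 8 libraries of day 1. Membrane proteins other than Npc1 and hydrolases other than Gusb turn red from day 2 on in all 4 combinations of genotype and treatment, most pump subunits stay pale, and Atp6v0d2 turns blue.

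Changes from one day to the next were tested with the quasi-likelihood test of edgeR, with Benjamini-Hochberg adjustment over all 15257 genes and a call at an adjusted p below 0.01. Without 4-OHT (mean of both genotypes), 28 of the 37 members rose from day 1 to day 2 and 4 fell, where 25.6% of all tested genes rose and 24% fell. From day 2 to day 3, 19 rose and 10 fell (24.8% and 23.4% of all genes). From day 3 to day 4, 13 rose and 8 fell (10.7% and 11.8%). The median log2 fold change of the members was 0.36, 0.18 and 0.05 at these steps, against 0.01, 0.04 and 0.00 over all tested genes.

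Most members were also called at these steps after 4-OHT. In 4-OHT-treated Trex1 WT/FL cells, 26 members rose and 2 fell from day 1 to 2 (20.2% and 18.4% of all genes), and 16 rose and 10 fell from day 2 to 3 (17.7% and 18.6%). In 4-OHT-treated Trex1 FL/FL cells, 26 rose and 1 fell at the earlier step (21.7% and 19.4%), and 19 rose and 7 fell at the later one (15.1% and 18%). Called higher at both steps in the untreated cells and in both 4-OHT-treated genotypes were 16 members, namely 8 of 10 hydrolases, 7 of 8 membrane proteins and Tfe3, where 6.54% of all tested genes were called higher in all of these comparisons. The log2 fold change passed 1.5, a threshold the study set, for Lgmn only, from day 1 to 2 in both 4-OHT-treated genotypes. Scaling to library totals without TMM factors lowered the share of rises: it gave 13 rises and 11 falls from day 2 to 3 in untreated cells, 13 and 12 in 4-OHT-treated Trex1 WT/FL cells, and 18 and 5 from day 1 to 2 in 4-OHT-treated Trex1 FL/FL cells, where the median log2 fold change of all genes became -0.21 (-0.11 for the same step in treated Trex1 WT/FL cells).

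**Figure D2:**
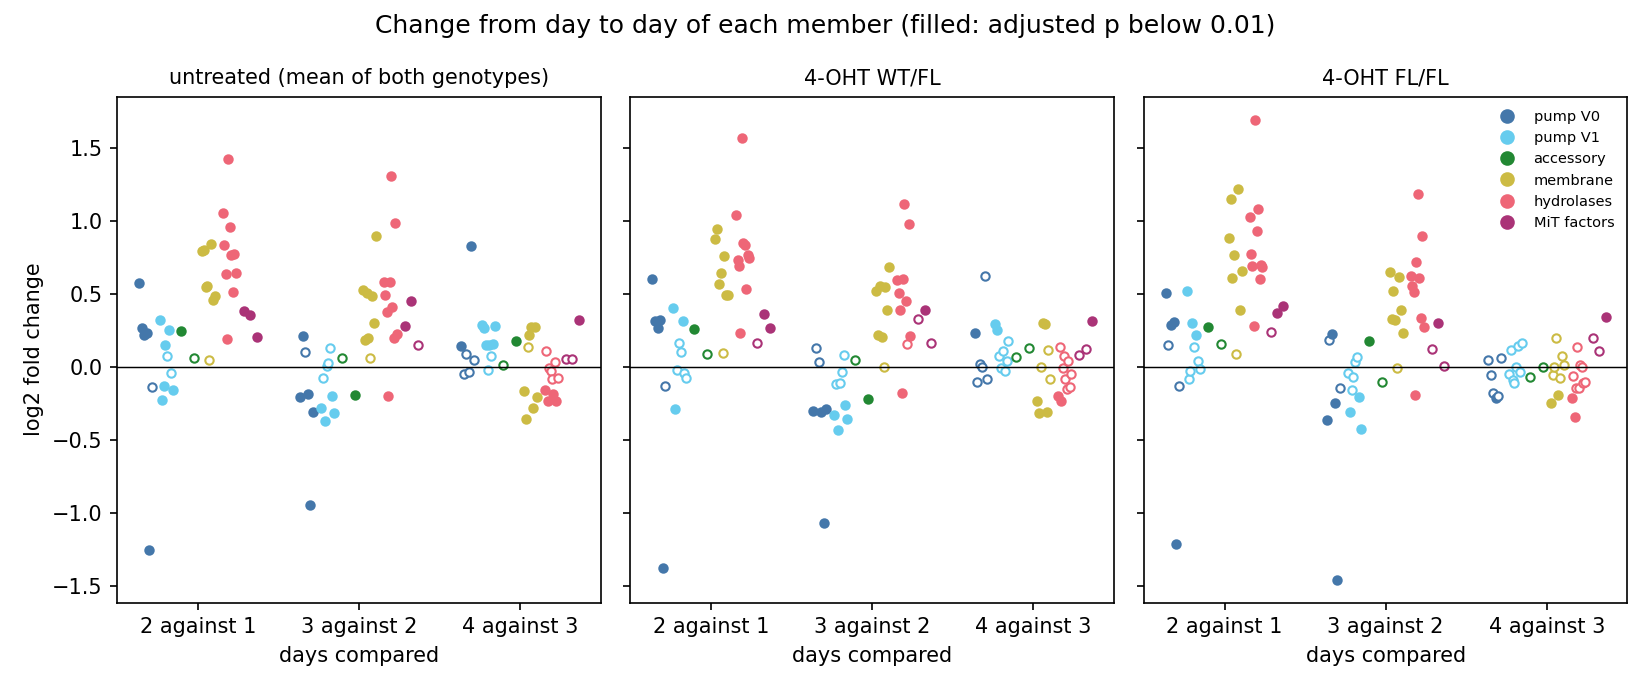
Log2 fold change (vertical axis) of each of the 37 members between consecutive days (horizontal axis) in untreated cells, 4-OHT-treated WT/FL and 4-OHT-treated FL/FL cells; colours mark roles and filled points have an adjusted p below 0.01. Hydrolases and membrane proteins lie above 0 at the first 2 steps apart from Gusb, which fell from day 2 to 3, and Npc1, which was not called there, and Atp6v0d2 is the lowest point of those steps.

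Among the pump genes, Atp6v0d2, the tissue-restricted form of the V0 stalk subunit d that osteoclasts and macrophages use, stood apart. Over the 8 libraries of each day it measured 73.0 to 119 CPM on day 1 (median 103), 29.4 to 50.6 on day 2 (median 42.0), 16.0 to 21.3 on day 3 (median 18.9) and 14.5 to 35.1 on day 4 (median 32.8). No library of day 2 reached those of day 1, and none of day 3 reached those of day 2. In untreated cells it fell by 1.25 ± 0.12 (SE) on the log2 scale from day 1 to 2 and by 0.94 ± 0.12 from day 2 to 3, then rose by 0.83 ± 0.12 to day 4 (edgeR adjusted p = 2.2e-08, 2.1e-06 and 3.7e-05). The 9 osteoclast markers together moved the same way, from 592–920 CPM on day 1 to 108–129 on day 3. Of these, Acp5 and Ctsk went from means of 287 and 277 CPM on day 1 to 9.75 and 11.0 on day 3, and Calcr was at 0.86 CPM on day 1. Other markers of the list took another course: Mmp9 had means of 12.5, 15.5, 12.5 and 41.6 CPM on days 1 to 4, and Nfatc1 of 114, 73.0, 81.4 and 77.3 CPM. The part of osteoclast-like cells in the fall of Atp6v0d2 was not tested.

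Atp6v0d1, the widely expressed form of the same subunit, was far steadier. Its medians were 164, 200, 170 and 163 CPM on days 1 to 4, with ranges that overlapped between days 1, 3 and 4. It rose by 0.23 ± 0.04 log2 units to day 2 in untreated cells and fell by 0.18 ± 0.04 to day 3 (edgeR adjusted p = 4e-06 and 0.0001). The other V0 subunits ranged from Atp6v0e, a small subunit that was lower on day 3 than on day 1 in every library (ratio of means 0.76), to Atp6v0b, part of the proton-carrying ring, and Atp6v0c, the ring's main protein, which were higher (1.35 and 1.29). About 7.3% of the 31-base words of Atp6v0c transcripts also occur in another gene, so its estimate can share reads with a near copy. The share was higher for Atp6ap2 (13.7%), Atp6v1f (13.1%), Cd63 (10.8%), Lgmn (8.13%) and Glb1 (7.69%), whose estimates can share reads with other genes too.

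The V1 sector, which hydrolyses ATP, moved in both directions at once. From day 1 to 2 in untreated cells, Atp6v1a, the catalytic subunit, rose by 0.32 ± 0.03 log2 units, and Atp6v1d and Atp6v1f of the central rotor rose by 0.15 ± 0.04 and 0.25 ± 0.04, while Atp6v1b2, Atp6v1h and Atp6v1c1 fell by 0.23 ± 0.04, 0.16 ± 0.04 and 0.13 ± 0.04. From day 2 to 3, 4 of 8 fell and none rose, led by Atp6v1c1, which joins V1 to V0 (fell by 0.37 ± 0.04), and Atp6v1h, a regulator of the assembled pump (fell by 0.32 ± 0.04). Atp6v1h had medians of 120, 111, 87.3 and 101 CPM on days 1 to 4, and its day 3 libraries (82.0 to 90.7 CPM) all lay below those of every other day. From day 3 to 4 in untreated cells, 6 of 8 rose by 0.15 to 0.28. Without TMM factors 2 rose and 4 fell at the first step, 5 fell at the second and 6 rose at the third, and at the first step in 4-OHT-treated Trex1 FL/FL cells 1 rose and 3 fell in place of 3 and 0. The adjusted p of the V1 genes named for the first step ran from 4.3e-09 to 0.0044 (edgeR). Of the accessory proteins, Atp6ap1, which helps assemble the pump, rose by 0.25 ± 0.03 to day 2, and Atp6ap2, the prorenin receptor, fell by 0.19 ± 0.04 from day 2 to 3.

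The membrane proteins rose early and stayed high. Lamp1 measured 1047 to 1159 CPM on day 1 (median 1119), 1878 to 2086 on day 2 (median 1998), 2655 to 3140 on day 3 (median 2877) and 2406 to 2675 on day 4 (median 2538). The ranges of days 1, 2 and 3 did not touch. In untreated cells the rise was 0.80 ± 0.04 and then 0.52 ± 0.04 log2 units, and the fall to day 4 was by 0.17 ± 0.04 (edgeR adjusted p = 3.9e-16, 2.6e-12 and 0.0011). Lamp2, a second membrane glycoprotein and the receptor of chaperone-mediated autophagy, rose by 0.80 ± 0.04 and 0.18 ± 0.04 and then fell by 0.35 ± 0.04, the largest fall of any member from day 3 to 4 in these cells. Cd68 kept rising, by 0.55 ± 0.04, 0.19 ± 0.04 and 0.22 ± 0.04. Scarb2 is the receptor that carries glucocerebrosidase to the lysosome. In untreated cells it rose most from day 2 to 3 among the membrane proteins, by 0.89 ± 0.05. Its untreated means went from 184.3 to 336.7 CPM in Trex1 WT/FL and from 177.5 to 335.9 in Trex1 FL/FL cells. After 4-OHT they went from 179 to 287.7 CPM in Trex1 WT/FL but from 200 to 235 in Trex1 FL/FL cells. Cd63, a tetraspanin, and Npc2, a cholesterol carrier of the lumen, were also higher, with day 3 to day 1 ratios of 2.13 and 2.77.

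Npc1, the membrane transporter that takes cholesterol from Npc2, did not follow its partner. It had medians of 262, 273, 277 and 338 CPM on days 1 to 4 and was not called at the first 2 steps in untreated cells (log2 fold changes of 0.05 and 0.06 ± 0.04). It then rose by 0.28 ± 0.04 from day 3 to 4 (edgeR adjusted p = 7.8e-07), as did Mcoln1 by 0.27 ± 0.05.

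The hydrolases and activators rose most. Psap measured 2809 to 3044 CPM on day 1 (median 2844), 5077 to 5937 on day 2 (median 5429), 10700 to 14290 on day 3 (median 12970) and 10170 to 13750 on day 4 (median 12170). Lgmn, an asparaginyl endopeptidase that also matures other proteases, measured 308 to 338 CPM on day 1 (median 319), 838 to 1045 on day 2 (median 923), 1278 to 1719 on day 3 (median 1369) and 1234 to 1899 on day 4 (median 1400). For both genes the ranges of days 1, 2 and 3 did not overlap, and the mean on day 3 was 4.47 times that on day 1. In untreated cells Psap rose by 0.96 ± 0.03 and 1.31 ± 0.03 log2 units and Lgmn by 1.43 ± 0.04 and 0.58 ± 0.04 at these steps (edgeR adjusted p from 6.3e-22 to 4.4e-13).

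Of the enzymes that trim glycans and lipids, Man2b1 (alpha-mannosidase) and Hexa (the alpha chain of beta-hexosaminidase) ended highest, at 3.28 and 3.11 times the day 1 level on day 3. Man2b1 rose by 0.77 ± 0.04 and 0.98 ± 0.04 and Hexa by 1.05 ± 0.04 and 0.58 ± 0.04 log2 units in untreated cells. Grn (ratio 2.54), Gaa, the acid alpha-glucosidase that digests glycogen (2.47), Glb1, a beta-galactosidase (2.12), Asah1, an acid ceramidase (1.88), and Neu1, a sialidase (1.70), were higher on day 3 as well. Gusb, a beta-glucuronidase, was the exception at 1.02: it rose by 0.19 ± 0.03 and then fell by 0.20 ± 0.03 (edgeR adjusted p = 1.9e-05 and 7.6e-06).

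The MiT factors rose by less than most of the hydrolases. Tfe3 measured 102 to 109 CPM on day 1 (median 104), 131 to 139 on day 2 (median 136), 166 to 187 on day 3 (median 183) and 177 to 201 on day 4 (median 190), and rose in untreated cells by 0.36 ± 0.03 and 0.45 ± 0.03 log2 units (edgeR adjusted p = 7.3e-10 and 6.9e-12). Tfeb had medians of 33.9, 39.9, 47.6 and 50.1 CPM and rose by 0.38 ± 0.09 and 0.28 ± 0.09, and it was not called at these steps in 4-OHT-treated cells (adjusted p from 0.03 to 0.45). Its call from day 2 to 3 (adjusted p = 0.0075) was lost without any 1 of 7 of the 8 libraries (0.017 to 0.045; it held without the Trex1 WT/FL replicate 2 of day 3) and without TMM factors (0.13), and that from day 1 to 2 in a fit of the compared libraries alone (0.069). One untreated Trex1 FL/FL library of day 1 held 21.4 CPM of Tfeb, while the other 7 libraries of that day held 33.3 to 35.8. Mitf had medians of 74.2, 87.9, 97.3 and 121 CPM, was called higher on day 2, and was the 1 member called higher from day 3 to 4 in untreated cells and both 4-OHT-treated genotypes (0.32, 0.31 and 0.34). The Mitf call at that step was lost in treated Trex1 FL/FL cells without the day 3 replicate 1 or the day 4 replicate 2 (adjusted p of 0.027 and 0.018), and in treated Trex1 WT/FL cells without the day 3 replicate 2 or the day 4 replicate 1 (0.036 and 0.044).

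**Figure D3:**
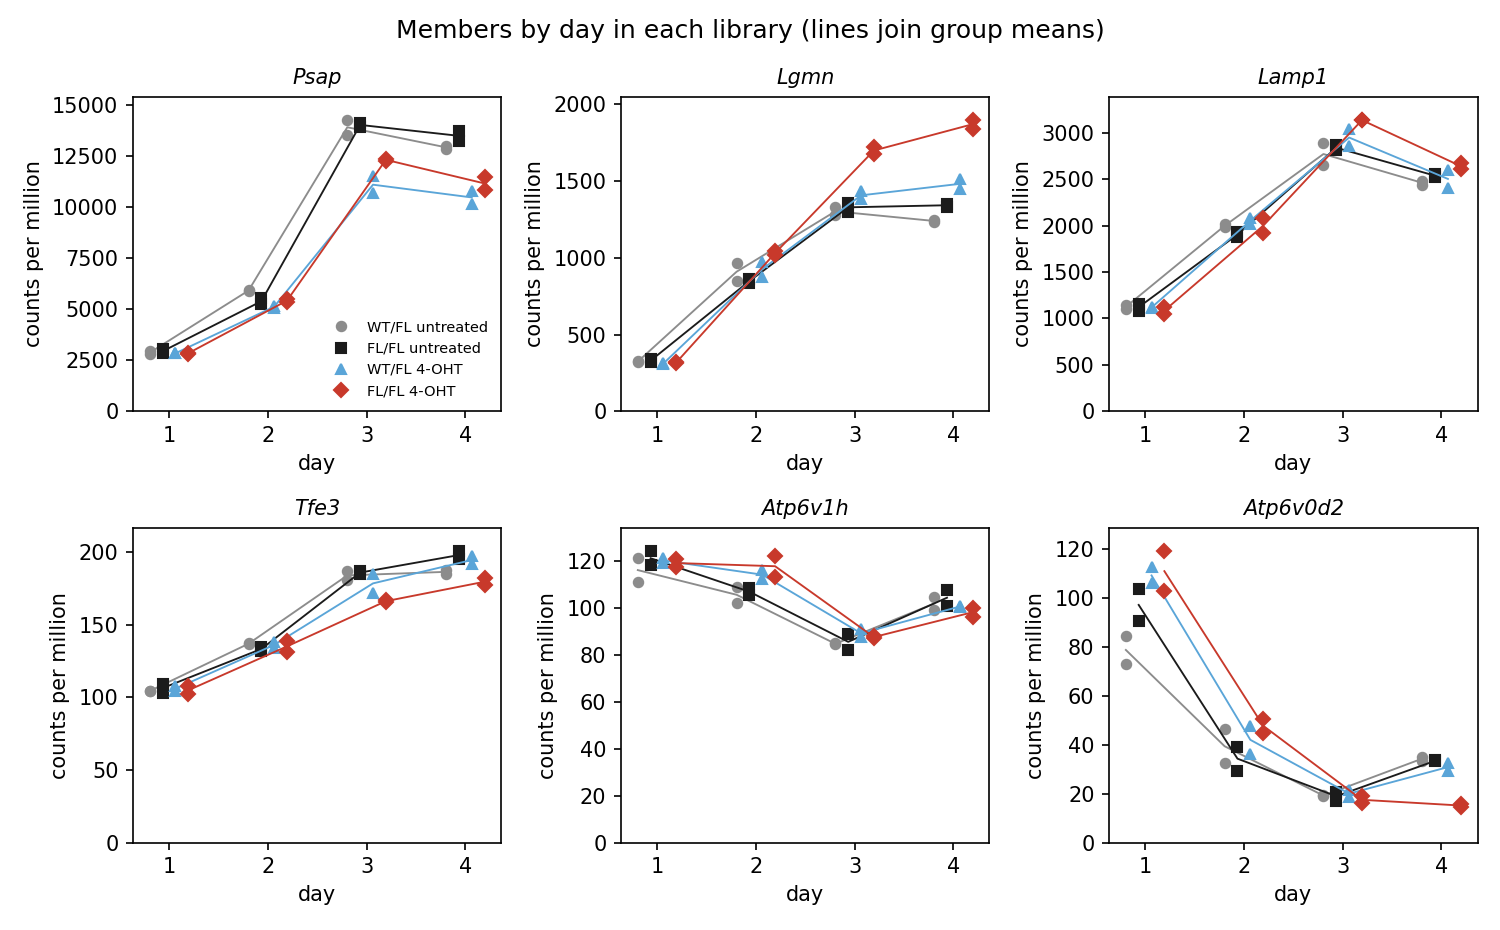
CPM (vertical axes, from 0) against day (horizontal axes) of Psap, Lgmn, Lamp1, Tfe3, Atp6v1h and Atp6v0d2 in each of the 32 libraries; symbols mark genotype and treatment and lines join the means of 2 libraries. Psap, Lgmn and Lamp1 climb to day 3, Atp6v1h dips to 82.0 to 90.7 on day 3, and Atp6v0d2 falls from 73.0 to 119 on day 1 to 16.0 to 21.3 on day 3.

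The step to day 4 was smaller. In 4-OHT-treated Trex1 WT/FL cells 6 members rose and 5 fell from day 3 to 4 (6.23% and 5.93% of all genes). In 4-OHT-treated Trex1 FL/FL cells Mitf rose, and Glb1, Lamp1, Atp6v0d1, Hexa and Npc1 fell by 0.19 to 0.34 log2 units (3.64% and 5.7% of all genes). These counts depended on single libraries. Without either Trex1 FL/FL library of day 3 or of day 4, 1 or 2 members were called in place of 6. In Trex1 WT/FL cells 5 were called in place of 11 without the day 3 replicate 2 or the day 4 replicate 1, 7 without the day 3 replicate 1, and 8 without the day 4 replicate 2.

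Few members were called after 4-OHT in cells that keep a Trex1 allele. This comparison also takes in active Cre and possible loss of the floxed allele, which cannot be told apart from 4-OHT. In Trex1 WT/FL cells, edgeR called 0, 0, 1 and 1 members on days 1 to 4 between 4-OHT-treated and untreated cultures, where 0.00655%, 0.0918%, 0.341% and 0.216% of all genes were called in either direction. An unadjusted p below 0.05 was reached by 3, 2, 5 and 5 members, and DESeq2 called 0, 0, 1 and 3. The member called was Psap on both days. On day 3 the 4-OHT-treated libraries held 10700 and 11520 CPM and the untreated ones 13560 and 14290, and on day 4 they held 10170 and 10800 against 12870 and 13010. Psap was thus lower after 4-OHT in both libraries of each day, by 0.33 ± 0.05 and 0.30 ± 0.05 on the log2 scale (edgeR adjusted p = 0.00022 and 0.0011). In Trex1 FL/FL cells Psap was lower after 4-OHT too, with -0.19 ± 0.05 on day 3 and -0.27 ± 0.05 on day 4 (adjusted p = 0.0049 and 6.1e-05). The Psap call in Trex1 WT/FL cells was lost without the untreated replicate 2 or the treated replicate 1 on day 3 (adjusted p of 0.020 and 0.021), and without either untreated library or the treated replicate 1 on day 4 (0.019, 0.019 and 0.079), at changes of -0.26 to -0.31.

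The effect of deleting both Trex1 alleles was read from 4-OHT-treated Trex1 FL/FL against 4-OHT-treated Trex1 WT/FL cells. After Trex1 deletion a few lysosomal genes were higher and a few lower, and the median over the members stayed near 0. On day 1, edgeR and DESeq2 called 0 members and 0 had an unadjusted p below 0.05 (0.0197% of all genes were called). On day 2, 3 members were higher and 0 lower (5.69% and 2.48% of all genes), or 1 and 1 without TMM factors. On day 3, 8 were higher and 2 lower (6.69% and 5.42%). On day 4, 5 were higher and 3 lower (9.84% and 11.7%). The shares of members called stood near or below those of all genes in most of these counts, apart from the 8 higher on day 3. The median log2 fold change of the members was -0.01, 0.04, 0.06 and 0.03 on days 1 to 4, against -0.01, -0.01, -0.01 and -0.04 over all tested genes. Without TMM factors the medians were 0.01, -0.04, 0.01 and -0.07, against 0.00, -0.09, -0.05 and -0.13, so the sign for the members turned on days 2 and 4. On day 4 it also turned against untreated Trex1 FL/FL cells (-0.06) and as an interaction with untreated cells (-0.07).

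The 4-OHT-treated Trex1 FL/FL libraries also stood apart in other measures. Mitochondrial transcripts took 2.17 to 2.22% of their counts on day 2, 1.36 to 1.43% on day 3 and 1.69 to 1.98% on day 4, against 2.48 to 3.56%, 2.09 to 2.61% and 2.83 to 3.96% in the other 6 libraries of each day. The granulocyte markers summed to 229–245 CPM in them on day 4 and to 160–182 in the others. Nearly all of this sum was Csf3r, with a mean of 172 CPM over the libraries of that day. No other marker of the list had a mean above 4.46 CPM, so the sum is not a measure of granulocytes. The part of these measures in the genotype differences below was not tested.

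Npc2, Lamp2 and Grn were called higher on days 2, 3 and 4, and Lgmn on days 3 and 4. Npc2 held 1414 and 1454 CPM in the Trex1 FL/FL libraries of day 2 against 1061 and 1074 in the Trex1 WT/FL ones. On day 3 it held 2196 and 2195 against 1488 and 1632 CPM, and on day 4 2083 and 2089 against 1239 and 1279. On each of these days both libraries lay above the 6 other libraries of the day, untreated cells included, whereas on day 1 (603 and 632 against 632 and 630 CPM) they overlapped. The log2 fold changes were 0.43 ± 0.07, 0.49 ± 0.07 and 0.73 ± 0.07, which is 1.34, 1.41 and 1.66-fold (edgeR adjusted p = 0.0001, 1.4e-05 and 7.9e-09).

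Lamp2 held 1031 and 1081 CPM against 939 and 903 on day 2, 1316 and 1333 against 1061 and 1085 on day 3, and 1293 and 1260 against 828 and 895 on day 4. The higher values again belonged to the Trex1 FL/FL cells in every case. Between days 3 and 4 Lamp2 was at -0.05 ± 0.05 in these cells and at -0.32 ± 0.05 in the 4-OHT-treated control, and the difference between these changes was not called (0.26 ± 0.07, adjusted p = 0.020). The differences were 0.20 ± 0.05, 0.30 ± 0.05 and 0.57 ± 0.05 log2 units (edgeR adjusted p = 0.0074, 6.4e-05 and 9.4e-10). Grn, whose protein is cut into granulins in the lysosome, held 3456 and 3487 CPM against 3033 and 2946 on day 2, 5296 and 5284 against 3900 and 4264 on day 3, and 5181 and 5494 against 3575 and 3757 on day 4. Its differences were 0.22 ± 0.05, 0.37 ± 0.05 and 0.54 ± 0.05 (edgeR adjusted p = 0.0041, 5e-06 and 3.2e-09). On day 2, leaving out any 1 of the 4 libraries left Npc2 as the single call. The adjusted p of Lamp2 then ran from 0.016 to 0.13 and that of Grn from 0.017 to 0.060.

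Lgmn held 1719 and 1679 CPM against 1434 and 1380 on day 3 and 1842 and 1899 against 1449 and 1515 on day 4, differences of 0.27 ± 0.05 and 0.34 ± 0.05 log2 units (edgeR adjusted p = 0.0006 and 2.2e-05). As an interaction with untreated cells Lgmn was not called on either day (0.24 and 0.22, adjusted p = 0.048 and 0.051). The other members called higher belonged to 1 day each. On day 3 they were Atp6v1a (0.37 ± 0.05), Atp6v1c1 (0.27 ± 0.05), Atp6v0c (0.25 ± 0.05) and Cd68 (0.24 ± 0.06), and on day 4 Atp6v0e (0.36 ± 0.08). Atp6v0e was at 0.23 ± 0.08 between untreated cells of day 4 and was not called as an interaction (0.13 ± 0.11, edgeR adjusted p = 0.51) or against untreated Trex1 FL/FL cells (0.13 ± 0.08, adjusted p = 0.25). Atp6v1a held 791 and 787 CPM against 605 and 612 on day 3. Its step from day 2 to 3 was -0.05 ± 0.05 in the Trex1 FL/FL cells and -0.33 ± 0.05 in the control, a difference that was not called (0.28 ± 0.07, adjusted p = 0.019), and on day 4 the groups overlapped (751 and 776 against 734 and 756 CPM). The change of its genotype difference from day 3 to 4 was itself called (-0.34 ± 0.07, edgeR adjusted p = 0.0015), although not without the Trex1 FL/FL replicate 1 of day 4 (adjusted p = 0.013).

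**Figure D4:**
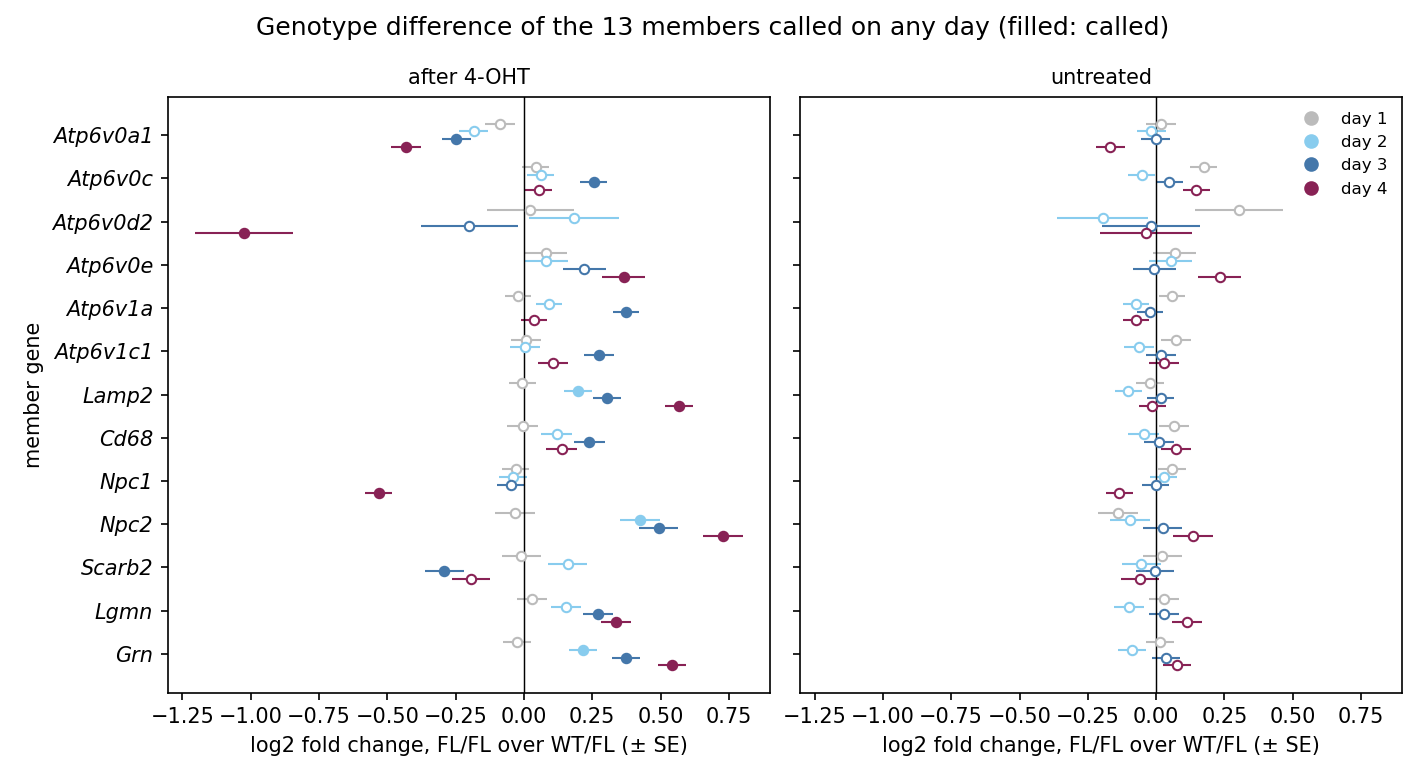
Log2 fold change of Trex1 FL/FL over Trex1 WT/FL cells with its SE (horizontal axes) for the 13 members called on any of days 2 to 4 (vertical axis), after 4-OHT on the left and untreated on the right; colours mark days and filled points have an adjusted p below 0.01. After 4-OHT, Npc2, Lamp2, Grn and Lgmn lie at 0.20 to 0.73 wherever they were called and Atp6v0d2 reaches -1.02 on day 4, while no point is filled in untreated cells.

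Of the members called lower, Npc1 went against Npc2. It held 233 and 247 CPM in the Trex1 FL/FL libraries of day 4 against 343 and 352 in the Trex1 WT/FL ones, and the 4 untreated libraries of that day held 308 to 362. Both Trex1 FL/FL libraries thus lay below all 6 others, after 3 days on which the groups were at 246 to 293 CPM. Npc1 was lower by 0.53 ± 0.05 log2 units on day 4 (edgeR adjusted p = 3.2e-09), and the change of its genotype difference from day 3 to 4 was -0.48 ± 0.07 (adjusted p = 3.6e-05).

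Atp6v0d2 held 15.7 and 14.5 CPM against 29.3 and 32.4 on day 4, the other 4 libraries of that day holding 33.2 to 35.1 CPM. Its step from day 3 was -0.20 ± 0.18 in these Trex1 FL/FL cells and 0.63 ± 0.17 in the 4-OHT-treated control (edgeR adjusted p = 0.55 and 0.014), and the difference between these steps was not called (-0.82 ± 0.25, adjusted p = 0.057). The genotype difference on day 4 was -1.02 ± 0.18 (adjusted p = 0.00019). The 9 osteoclast markers summed to 98.6–99.8 CPM in these 2 libraries and to 152–167 in the other 6 of that day, and the markers of cycling cells to 65.6–69.7 against 183–231 CPM. Erythroid and megakaryocyte markers summed to 42.7–46.2 CPM in these 2 libraries and to 146–177 in the other 6. Nearly all of that sum was Pf4, with a mean of 130 CPM over the libraries of day 4, and no other marker of the list had a mean above 1.02 CPM. The part of these marker sets in this difference was not tested. Macrophage markers summed to 35880–38260 CPM in 4-OHT-treated Trex1 FL/FL cells on day 4 and to 36230–36540 in the 4-OHT-treated control, but on day 3 to 43350–43650 against 50680–52920.

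Atp6v0a1, the V0 subunit that forms the path of the protons, was lower on days 3 and 4. It held 213 and 206 CPM against 241 and 256 on day 3, and 215 and 217 against 275 and 308 on day 4. The groups did not overlap, and the differences were -0.25 ± 0.05 and -0.43 ± 0.05 log2 units (edgeR adjusted p = 0.0013 and 3.6e-07). In untreated cells of day 4 the same gene was at -0.17 ± 0.05 (adjusted p = 0.095). Scarb2 was lower on day 3, at 226 and 244 against 282 and 293 CPM (-0.29 ± 0.07, adjusted p = 0.0035). On day 3, 6 members were called without the first replicate of either group in place of 10. Cd68 lost its call without the first replicate of either group, and Scarb2 without either Trex1 WT/FL library or the Trex1 FL/FL replicate 1. Atp6v0a1 lost its call without the replicate 2 of either group.

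The MiT factors were not called at any day. Tfeb differed by -0.04 ± 0.12, 0.03 ± 0.12, -0.17 ± 0.12 and -0.05 ± 0.12 log2 units on days 1 to 4 and Mitf by -0.04 ± 0.07, 0.11 ± 0.07, -0.04 ± 0.07 and -0.02 ± 0.07. Tfe3 held 177 and 182 CPM on day 4 against 197 and 192 (-0.12 ± 0.05, edgeR adjusted p = 0.075). Lamp1, with differences of -0.04 to 0.09, and Atp6v0d1 were not called either. Without TMM factors, which moved the median of all genes on day 4 from -0.04 to -0.13, 5 members were higher and 9 lower on that day, Tfe3 and Atp6v0d1 among the latter (-0.21 and -0.25).

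**Figure D5:**
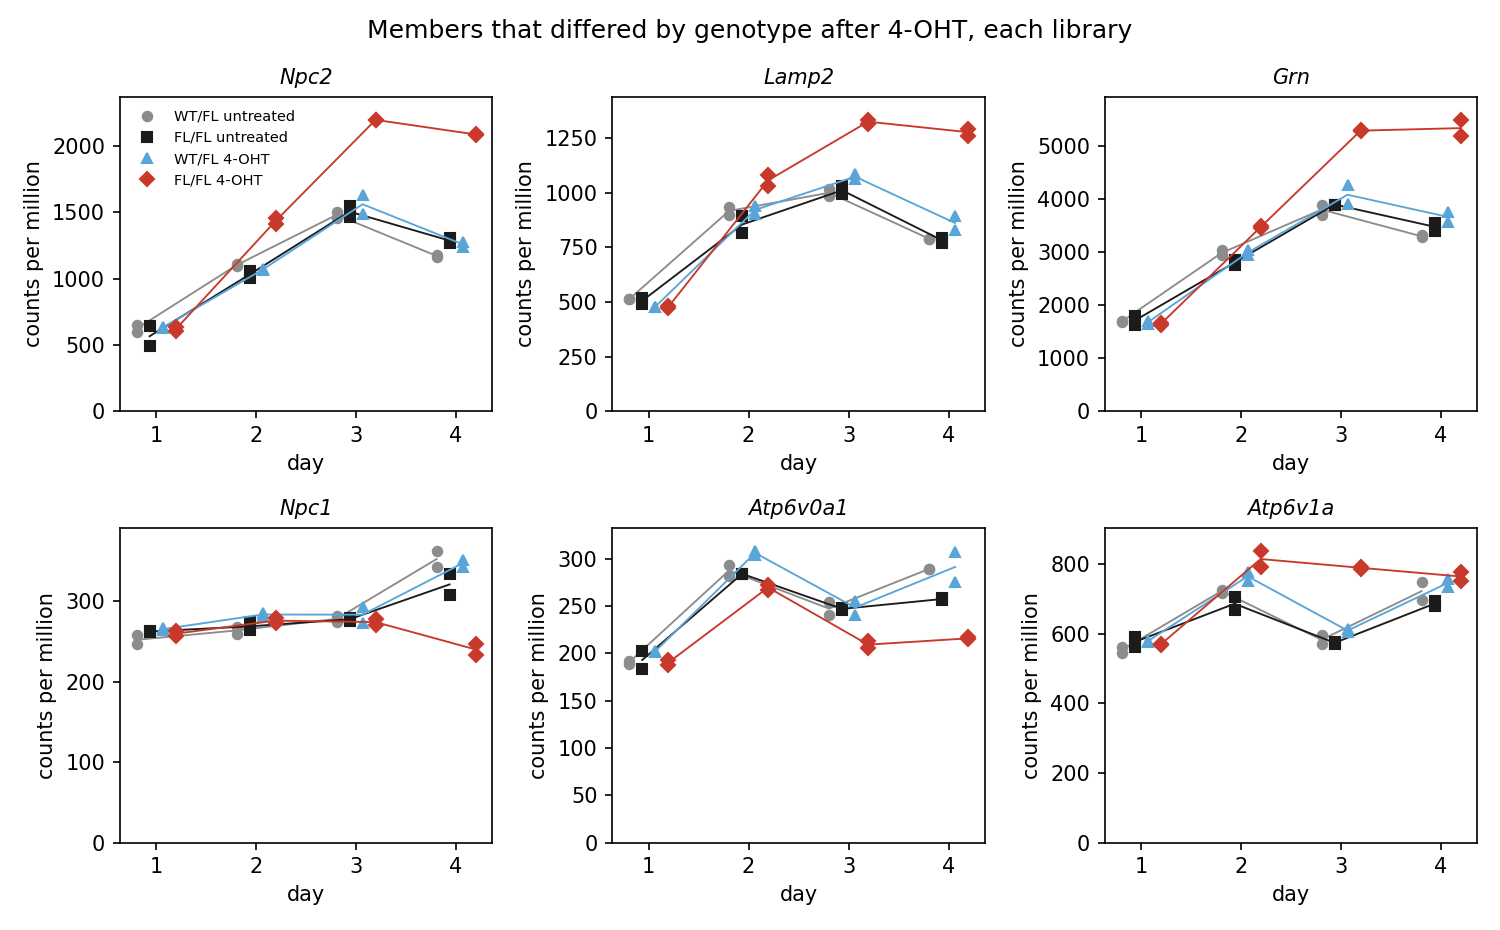
CPM (vertical axes, from 0) against day (horizontal axes) of Npc2, Lamp2, Grn, Npc1, Atp6v0a1 and Atp6v1a in each of the 32 libraries; symbols mark genotype and treatment and lines join the means of 2 libraries. The 4-OHT-treated FL/FL cells part from the other 3 cultures upwards for Npc2, Lamp2 and Grn and downwards for Npc1, which was at 233 and 247 CPM on day 4, and Atp6v0a1.

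Untreated cells of the 2 genotypes served as the control for a difference that was there before 4-OHT. No member was called between them on days 1 to 4 by edgeR or DESeq2, where 0%, 0%, 0% and 0.0655% of all genes were called in either direction. An unadjusted p below 0.05 was reached by 3, 2, 0 and 12 members. The 12 of day 4 had log2 fold changes from -0.17 (Atp6v0a1) to 0.23 (Atp6v0e). As an interaction with untreated cells, the calls after 4-OHT held for Npc2, Lamp2 and Grn on days 2 to 4, for Atp6v1a on day 3 and for Npc1 and Atp6v0d2 on day 4. They were lost on day 3 for Atp6v1c1, Atp6v0a1, Lgmn, Atp6v0c, Scarb2 and Cd68 (edgeR adjusted p from 0.036 to 0.072), and on day 4 for Atp6v0a1 (-0.26, adjusted p = 0.015), Lgmn and Atp6v0e. Without the untreated Trex1 FL/FL replicate 1 of day 1, 3 members were called on that day, with Tfeb at -0.70 (adjusted p = 1.5e-06), since the library with 21.4 CPM then stood alone for its group.

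The genotype difference after 4-OHT was also compared between days. From day 1 to 2, 1 member was called (3.02% of all genes), Npc2, whose difference rose by 0.46 ± 0.10 log2 units (edgeR adjusted p = 0.0056), although not without any 1 of the 8 libraries (adjusted p of 0.014 to 0.039). From day 2 to 3, 0 members were called by edgeR (0.905% of all genes), 7 had an unadjusted p below 0.05 and DESeq2 called 2. From day 3 to 4, Npc1 and Atp6v1a were called (3.7% of all genes), and DESeq2 called 4. These comparisons share their control libraries with those above.

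Other genes of the pathway, 167 on 5 lists compiled by role, were counted in the same comparisons. From day 1 to 2 in untreated cells, 34 of the 44 tested other hydrolases were called higher and 5 lower, 33 of 37 other membrane proteins and transporters were higher and 1 lower, and 8 of 14 other pump subunits and assembly factors were higher and 2 lower. For nutrient sensing and MiT control the counts were 26 and 5 of 39, and for sorting and delivery 13 and 3 of 24. Of all tested genes, 25.6% were higher and 24% lower at this step, and 24.8% and 23.4% at the next. From day 2 to 3 these counts were 25 and 11, 21 and 5, 6 and 2, 12 and 7, and, for sorting and delivery, 4 higher and 10 lower. The sensing list at the later step was called about as often as all genes were.

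On day 4 after Trex1 deletion, 9.84% of all tested genes were higher and 11.7% lower, and the share called lower among the hydrolases and both shares of the sensing list stood near these. Of the other hydrolases, 10 were higher and 5 lower, with Gla (alpha-galactosidase, 0.67 ± 0.06) and Rnaset2a (a lysosomal RNase with a near-identical copy, Rnaset2b, that can share its reads, 0.64 ± 0.08) at the top and Hgsnat (-0.66 ± 0.13) and Galc (galactosylceramidase, -0.64 ± 0.09) at the bottom. Of the membrane proteins, 5 were higher and 9 lower, led by the peptide transporters Slc15a3 (0.88 ± 0.10) and Slc15a4 (0.60 ± 0.06) and by Slc48a1, a heme transporter (-0.90 ± 0.06), and Sidt2 (-0.59 ± 0.06). Of the pump and its assembly factors, 4 were higher and 3 lower, with Vma21 (0.51 ± 0.07) and Atp6v0a2 (0.46 ± 0.06), another form of the subunit that Atp6v0a1 encodes, against Dmxl2 (-1.03 ± 0.09) and Rogdi (-0.40 ± 0.09).

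In sorting and delivery, 1 gene was higher and 6 were lower. Sort1, a receptor that carries prosaposin and other cargo to the lysosome, was lower by 2.26 ± 0.11 and Igf2r, the large mannose 6-phosphate receptor, by 0.72 ± 0.07, whereas Rab7b was at 0.28 ± 0.07. In nutrient sensing and MiT control, 3 were higher and 5 lower, with Uvrag (0.44 ± 0.05) and Lamtor5 (0.34 ± 0.07) against Tfec, the myeloid member of the MiT family (-0.66 ± 0.10), and Gabarapl1 (-0.60 ± 0.11). The adjusted p of these named genes ran from 1.2e-14 to 0.0026 (edgeR).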

How the data were processed

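Per the submitters' processing notes, FastQC 11.9, Salmon and DESeq2 1.32 were used with GRCm39. The authors summed transcripts per gene, and the deposited values are estimated counts, stored as whole numbers with no normalization. The annotation release is not given in the sources used here. Identifiers without version were matched to GENCODE vM39 (51048 of 54281, the others with 0.32% of the counts).

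The quasi-likelihood test of edgeR 4.0.16 (under R 4.3.3) was run with TMM factors, a mean for each of 16 groups and a minimum count of 10, on 32 libraries, which left 16 residual degrees of freedom. A common biological coefficient of variation of 0.0912 resulted. P-values were adjusted after Benjamini-Hochberg over all 15257 genes. CPM used the same factors. An exact permutation test of 2 against 2 libraries cannot go below 0.33. Totals of 35120505 to 63760884 counts per library limit the precision less than having 2 libraries per group does. On data simulated for day 4 (15072 genes), 51 of 100 genes with a log2 fold change of 0.5 and 85 of 100 with 1 were called, and 0 of 14872 unchanged genes. The changed genes were not matched to the members in count and included genes of lower counts. The lowest member count in any library was 480 (Atp6v0d2), so these rates need not hold for the members.

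The members and all lists were chosen with earlier results of these data known. Named were Tfeb, Tfe3, Mitf, Atp6v0d1, Atp6v0d2, Lamp1, Lamp2, Cd68, the 3 members per direction that changed most in each comparison, and 2 genes per direction of each other list, and other members were named after their values were seen. Marker lists of granulocytes (40.0 to 245 CPM summed), dendritic (up to 30.7), stromal (up to 10.2), lymphocyte (up to 53.0), mast (up to 7.92) and erythroid cells (42.7 to 177) were checked too. In the mast and erythroid lists, 5 of 8 and 4 of 10 markers stayed at 3 counts or fewer. Alternatives were RLE and upper-quartile factors, no factors, other count filters, DESeq2 1.42.0, fits of the compared libraries alone, other controls, a block on runs of consecutive title numbers, and leaving out each library.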

Additional observations from a re-analysis of the deposited data

Results flagged for a closer look

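The genotype difference after 4-OHT changed between days for 3 members, by a test of the change itself (edgeR). It rose by 0.46 for Npc2 from day 1 to 2 (adjusted p = 0.0056), and fell for Atp6v1a (-0.34, adjusted p = 0.0015) and Npc1 (-0.48, adjusted p = 3.6e-05) from day 3 to 4.

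The genotype difference after 4-OHT also differed from that in untreated cells of the same day, by the interaction term. On day 2 this was so for Npc2 (0.52 ± 0.10), Lamp2 (0.30 ± 0.07) and Grn (0.31 ± 0.07), with adjusted p of 0.0011, 0.0074 and 0.0073. On day 3 it was so for Npc2 (0.47), Atp6v1a (0.40), Grn (0.34) and Lamp2 (0.29), with adjusted p of 0.0034, 0.00027, 0.003 and 0.0096. On day 4 it was so for Npc2 (0.59), Lamp2 (0.58), Grn (0.47), Npc1 (-0.40) and Atp6v0d2 (-0.99), with adjusted p of 0.0001, 7.5e-07, 2.6e-05, 0.00016 and 0.0085. Both FL/FL libraries after 4-OHT lay on the stated side of both WT/FL libraries in each case.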

How the results depend on the processing

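Among the members checked in each comparison, no direction of a called one reversed under any alternative run. Those checked were the members always named and up to 3 per direction that changed most. Other called members were not checked for this. Counts of members called after 4-OHT between genotypes moved as follows. On day 2 the count of 3 became 1 without the filter or with the compared libraries alone, and 8 against untreated FL/FL cells. On day 3 the count of 10 became 4, and on day 4 the count of 8 became 5, as an interaction with untreated cells. Library totals without factors, chosen after seeing the data, gave 14 on day 4. Leaving out each library gave 1 to 1, 6 to 9 and 7 to 11 on days 2 to 4, and 0 to 3 between untreated cells on day 1. For 4-OHT in WT/FL cells the count of 0 on day 1 became 1 without the filter. There the count of 1 on days 3 and 4 became 0 with the compared libraries alone and 3 on day 4 with DESeq2 (0 to 1 with a library left out on each day). From day 3 to 4 the count of 6 in treated FL/FL cells became 3 without the filter (1 to 2 with a library left out), and that of 11 in treated WT/FL cells became 5 with the compared libraries alone (5 to 8). For the change of the genotype difference, the count of 1 from day 1 to 2 became 0 without factors (0 to 0). The count of 0 from day 2 to 3 became 1 without the filter, with a minimum count of 50, with the compared libraries alone or without factors, and 2 with DESeq2. The count of 2 from day 3 to 4 became 4 with DESeq2 (1 to 2). The causes were not tested. Of the values of single named members, 1940 kept their side of the threshold, 40 lost it and 26 gained it under other settings, and 1149, 66 and 1 did with a library left out. Of the medians over the members, 34 moved by more than the spread between replicates and 166 did not under other settings (25 and 95 with a library left out). The labels give no replicate number, animal or batch, but the titles form 8 runs of 4 consecutive numbers, 1 library per day in each. Differences between the 2 runs of a culture type correlated weakly but always positively between days (r across genes of 0.014 to 0.14, over 0.1 in 3 of 24 pairs of days). The main fit did not pair libraries by run. A low r cannot exclude such pairing, because noise in single libraries lowers it too. A replicate block on these runs, chosen after seeing the data, raised the count of 1 for 4-OHT in WT/FL cells on day 4 to 3, that of 0 for the change of the genotype difference from day 2 to 3 to 2, and that of 10 between genotypes on day 3 to 15. With it, the change of the genotype difference of Atp6v0d2 from day 3 to 4 was called (-0.83, adjusted p = 0.00064), its rise to day 4 in treated WT/FL cells was called (adjusted p = 6.1e-05), and the rise of Tfeb from day 2 to 3 was not (adjusted p = 0.010), while Cd68 gained a call in 2 comparisons and Mitf in 1. The lowest member count in any library was 480 (Atp6v0d2).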

Other observations

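From day 3 to 4 in untreated cells, 10.7% of all tested genes were called higher and 11.8% lower. Several of the counts for the other lysosomal genes stood near these shares, such as those of the sensing genes and of the membrane proteins called higher. Of 44 other hydrolases 8 were higher and 12 lower, with Hyal1 (0.71 ± 0.13) and Galns (0.58 ± 0.05) against Hgsnat (-0.76 ± 0.09) and Naaa (-0.76 ± 0.06). Of 37 other membrane proteins 4 were higher and 6 lower, with Slc48a1 (0.77 ± 0.05) and Gpnmb (0.49 ± 0.11) against Slc15a4 (-0.39 ± 0.04) and Slc37a3 (-0.37 ± 0.05). Of 24 sorting genes 5 were higher and 1 lower, with Sort1 (0.57 ± 0.07) and Igf2r (0.54 ± 0.05) against Gga3 (-0.22 ± 0.05). Of 39 sensing genes 4 were higher and 3 lower, with Sqstm1 (0.34 ± 0.06) and Arl8a (0.33 ± 0.03) against Tfec (-0.28 ± 0.07) and Vps41 (-0.24 ± 0.04). Of 14 other pump genes 0 were higher and Ncoa7 was lower (-0.23 ± 0.05). All named changes are log2 fold changes with SE, called by edgeR at an adjusted p from 1.1e-12 to 0.0025.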
